A study of Homo sapiens with 4 samples.

Results

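Passenger arms are described here as the miRNA names that carry a star in the deposited values, such as miR-21*. They were chosen by name alone: 186 of the 1100 mature miRNA names (16.9%) contained a star. Of these, 151 reached 10 or more reads per 10000000 miRNA reads in at least 1 library, 35 stayed below that level, and 8 of the 35 had 0 reads in all libraries. For 126 of the 151, the files also held the row of the same name without the star, here called the partner, and the arm ratio was taken as log2 of star reads over partner reads within 1 library. An arm ratio of 0 means equal reads of both arms, and a negative value means fewer star reads. Because both arms are read in the same library, the ratio does not depend on how libraries were scaled. The other 25 had no such row and are described by level.

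Small RNA was sequenced from cells of 2 human breast lines and from exosomes, the small vesicles that cells secrete, purified from their cultures. MDA-MB-231, a mesenchymal-like breast cancer line that lacks hormone receptors and HER2 amplification, was grown in DMEM with 10% FBS. MCF-10A, an epithelial line of the breast that is immortal but not tumorigenic, was grown in DMEM/F12 with 5% horse serum, insulin, EGF, cholera toxin and hydrocortisone. The labels name no transgene or drug treatment for any group. Each of the 4 groups was 1 library, so the differences below could not be checked against replicates and carry no p-value. Whole reads recovered from the deposited values gave depths of 1532909 miRNA reads (MDA-MB-231 exosomes), 7346080 (cells of MDA-MB-231), 1254644 (MCF-10A exosomes) and 10937897 (labelled as cells of MCF-10A, and called the MCF-10A-labelled cell library below). Intervals in parentheses are 95% counting intervals, exact for ratios and Wilson for shares, and cover counting error only, since PCR reads without molecular identifiers are not independent molecules.

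The MCF-10A-labelled cell library stood apart. A list of 26 miRNAs of stroma, muscle, blood, liver, nerve, placenta and endothelium held 46.7% of its reads, and all 26 were above 0 there. The same list held 2.32% of reads in MDA-MB-231 exosomes (20 names above 0), 0.0685% in cells of MDA-MB-231 (15) and 0.0813% in MCF-10A exosomes (15), and the 3 placental names of the list were at 0 in these libraries. The 7 epithelial names held 4.41% of reads in MCF-10A exosomes, 1.01% in the MCF-10A-labelled cell library, 0.0459% in cells of MDA-MB-231 and 0.0232% in MDA-MB-231 exosomes. Any comparison with the MCF-10A-labelled cell library contains this difference in content, and its part in the arm ratios was not tested. In bulk RNA, fewer cells of a type and less RNA per cell cannot be told apart.

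A miRNA is cut by Drosha and Dicer from a hairpin as a short duplex of a 5p and a 3p strand. One strand, the guide, is loaded into an Argonaute protein and pairs with target mRNAs through its seed, bases 2 to 8, while the other strand, the passenger, is usually degraded. Older miRBase releases gave the star to the strand found less often, a naming that follows the tissues first sampled, and later releases replaced it by 5p and 3p. Argonaute prefers as guide the strand whose 5′ end is less firmly paired and that starts with U or A. Passenger strands can also be loaded and have their own seeds.

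Mature sequences are shown for selected star names, not by a fixed rule. Among them are pairs with large differences between libraries, pairs apart in the same direction in both lines, and the most abundant star name. Other such pairs, as let-7e* and miR-20a*, are not shown. They are RefSeq sequences of GRCh38.p14, matched by miRNA name, 5′ to 3′, with the seed (bases 2 to 8) in capitals. Of the 151 star names, 137 matched an entry.

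miR-374a* (3p arm): cUUAUCAGauuguauuguaauu
miR-374b* (3p arm): cUUAGCAGguuguauuaucauu
miR-374b (5p arm): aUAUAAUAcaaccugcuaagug
miR-222* (5p arm): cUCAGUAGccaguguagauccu
miR-222 (3p arm): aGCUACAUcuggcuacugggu
miR-27a* (5p arm): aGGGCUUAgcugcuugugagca
miR-27a (3p arm): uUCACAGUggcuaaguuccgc
miR-29a* (5p arm): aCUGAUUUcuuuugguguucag
miR-29a (3p arm): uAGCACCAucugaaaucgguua
miR-335* (3p arm): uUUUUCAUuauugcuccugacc
miR-335 (5p arm): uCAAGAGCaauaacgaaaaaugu
miR-193b* (5p arm): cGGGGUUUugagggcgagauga
miR-193b (3p arm): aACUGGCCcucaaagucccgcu
miR-106b* (3p arm): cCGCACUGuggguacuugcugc
miR-106b (5p arm): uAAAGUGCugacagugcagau
miR-92b* (5p arm): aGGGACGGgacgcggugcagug
miR-92b (3p arm): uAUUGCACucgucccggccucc
miR-100* (3p arm): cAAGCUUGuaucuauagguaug
miR-100 (5p arm): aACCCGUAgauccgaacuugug
let-7b* (3p arm): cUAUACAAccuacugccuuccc
let-7b (5p arm): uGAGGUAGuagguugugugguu
miR-148b* (5p arm): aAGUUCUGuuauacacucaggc
miR-148b (3p arm): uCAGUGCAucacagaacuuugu
miR-144* (5p arm): gGAUAUCAucauauacuguaag
miR-144 (3p arm): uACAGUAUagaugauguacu
miR-30a* (3p arm): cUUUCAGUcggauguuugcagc
miR-30a (5p arm): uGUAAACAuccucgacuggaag

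In each pair printed in full, the seeds of the arms differ. miR-374a* and miR-374b* differ within the seed (UUAUCAG and UUAGCAG) and do not share it. Among all star names, miR-30a* shares its seed UUUCAGU with miR-30e*, and let-7b* shares UAUACAA with let-7a* and let-7f-1*. The placental star names miR-518e*, miR-518f*, miR-519a*, miR-522* and miR-523* share UCUAGAG, and 4 of them (all but miR-518f*) had identical values in every library, so they cannot be separated here.

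The files give no coordinates. In RefSeq of GRCh38.p14, with host genes from GENCODE release 29, the hairpins of miR-374a (chrX:74287286-74287357, minus strand) and miR-374b (chrX:74218547-74218618, minus strand) lie in an intron of the lincRNA FTX. That of miR-222 (chrX:45747015-45747124, minus strand) lies in an intron of MIR222HG, and that of miR-106b (chr7:100093993-100094074, minus strand) in an intron of MCM7. The miR-335 hairpin (chr7:130496111-130496204, plus strand) lies in an intron of MEST, the miR-193b hairpin (chr16:14303967-14304049, plus strand) in an intron of MIR193BHG, and the miR-100 hairpin (chr11:122152229-122152308, minus strand) in an intron of MIR100HG. The let-7b hairpin (chr22:46113686-46113768, plus strand) overlaps an exon of MIRLET7BHG, and the miR-148b hairpin (chr12:54337216-54337314, plus strand) lies in an intron of COPZ1.

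Star names took a small share of miRNA reads in every library. The share was 0.908% (0.893 to 0.923) in MDA-MB-231 exosomes, 1.62% (1.61 to 1.63) in cells of MDA-MB-231, 0.502% (0.489 to 0.514) in MCF-10A exosomes and 0.916% (0.910 to 0.921) in the MCF-10A-labelled cell library. It was thus lower in exosomes than in the cell library of the same line, in both lines. The number of star names above 0 was 118, 119, 99 and 173 in that order, and 84 were above 0 in all 4. With reads redrawn with replacement at the depth of the shallowest library, 111.1, 104.2, 94.2 and 145.2 names would have a read on average. Such a draw loses names even in the shallowest library, MCF-10A exosomes (94.2 against 99). The MCF-10A-labelled cell library still had the most. In that library, the deepest, 37 star names had reads that had none in the other 3. These counts were not set beside the same counts over all names. By level, 57.2% of all names and 47.2% of star names were at least 4-fold lower in MCF-10A exosomes than in that library. The lower level in MCF-10A exosomes was thus not particular to star names. Level is another measure than the number of names with a read, so these shares do not serve as a base for the counts.

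miR-30a*, the 3p arm of a miRNA that is itself among the most abundant in MDA-MB-231, led 3 of the 4 libraries. It made up 28.1% of star reads in MDA-MB-231 exosomes, 37.0% in cells of MDA-MB-231 and 16.7% in MCF-10A exosomes. Its deposited levels, on the log2 scale of reads per 10000000 plus 1, were 14.64, 15.87 and 13.03 in these libraries and 12.03 in the MCF-10A-labelled cell library. The MCF-10A-labelled cell library was led instead by miR-202*, the arm of a miRNA known from gonads, with 16262 reads (16.25% of star reads). miR-202* had 2 reads in cells of MDA-MB-231 and 0 in both exosome libraries. The 3 leading star names together held 46.6%, 64.5%, 36.1% and 36.4% of star reads in the same order of libraries. Star names of other tissues and of the DLK1-DIO3 and placental clusters, imprinted miRNA clusters active in embryo, brain or placenta, held 20.6% of star reads in exosomes of MDA-MB-231 and 35.7% in the MCF-10A-labelled cell library, against 0.253% in cells of MDA-MB-231 and 0.747% in MCF-10A exosomes.

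Among pairs with at least 20 reads over both arms, the median arm ratio was -5.60 in MDA-MB-231 exosomes (89 pairs), -4.93 in cells of MDA-MB-231 (85), -5.44 in MCF-10A exosomes (84) and -5.59 in the MCF-10A-labelled cell library (122). Star reads were thus far below partner reads in the middle of the range of every library. The ratio varied widely between pairs: over the 41 pairs with at least 5 star reads in all 4 libraries it ran from -12.03 to 3.60 in MDA-MB-231 exosomes and from -11.95 to -0.40 in the MCF-10A-labelled cell library. Over these same 41 pairs the medians were -3.99, -3.96, -3.48 and -5.95, so the MCF-10A-labelled cell library was lowest by about 2 units. The 41 pairs were kept by their star reads and are therefore richer in star reads than the rest. The filter also acts unequally, since 5 reads are a higher level in the shallower exosome libraries, and it favours pairs whose star is high there. Over the pairs with at least 20 reads given above, the MCF-10A-labelled cell library was not the lowest.

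**Figure D1:**
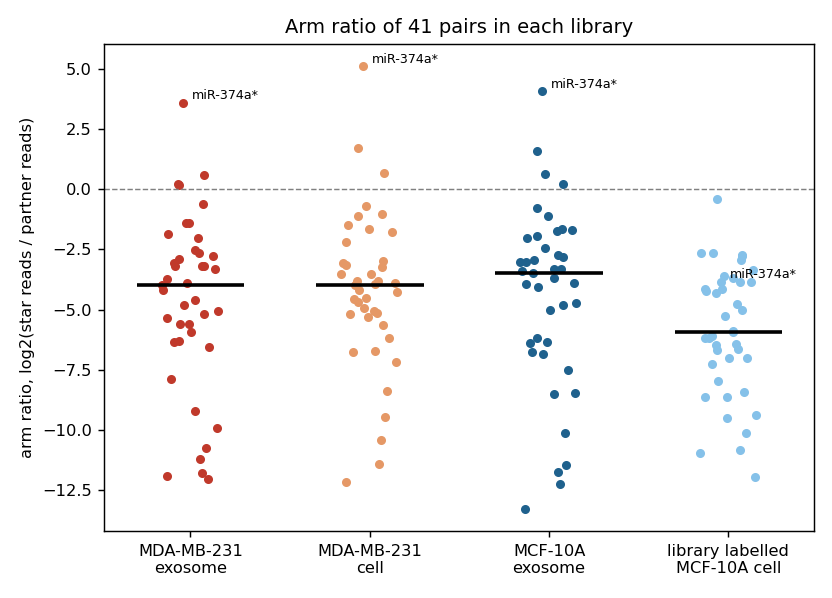
Arm ratio (vertical axis, log2 of star over partner reads) of the 41 pairs with at least 5 star reads in every library, by library, with 1 point per pair and a bar at the median. Most pairs lie far below 0, the dashed level of equal arms, the medians are -3.99, -3.96, -3.48 and -5.95 from left to right, and miR-374a* lies above 0 in the first 3 libraries.

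Star arms that matched or exceeded their partner were few. With at least 20 star reads, 20 pairs did so in 1 or more libraries: 9 in MDA-MB-231 exosomes, 3 in cells of MDA-MB-231, 3 in MCF-10A exosomes and 12 in the MCF-10A-labelled cell library. Pairs with at least 20 reads over both arms numbered 89, 85, 84 and 122 in this order. A minimum of 20 star reads is a higher level in the shallower exosome libraries. The counts go by reads, without an interval, and include pairs with close arms whose order is uncertain. miR-374a* was the clearest. It had 1124 star against 92 partner reads in MDA-MB-231 exosomes, 25443 against 731 in cells of MDA-MB-231 and 578 against 34 in MCF-10A exosomes, but 994 against 14255 in the MCF-10A-labelled cell library. The star arm thus held 92.4%, 97.2% and 94.4% of the reads of the pair in the first 3 libraries and 6.52% in the last. In those 3 libraries the star name marks the more abundant arm, the 3p strand. miR-374b*, its neighbour in FTX, did not show this: its star arm held 2.23%, 18.1%, 5.85% and 1.33% of the pair in the same order.

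miR-335*, the 3p arm of a hairpin in MEST whose 5p arm is known as a suppressor of metastasis in breast cancer lines, was high in MCF-10A samples. It had 489 star against 136 partner reads in MCF-10A exosomes and 981 against 4767 in the MCF-10A-labelled cell library. In MDA-MB-231 it had 2 against 22 reads in exosomes and 8 against 1 in cells. Its level was thus low in both MDA-MB-231 libraries, where the ratio rests on few reads. In MDA-MB-231, miR-625* exceeded its partner in exosomes (41 against 27 reads) and in cells (170 against 106), with 7 against 6 in MCF-10A exosomes and 76 against 521 in the MCF-10A-labelled cell library. miR-500* exceeded its partner in cells of MDA-MB-231 (154 against 47) and MCF-10A exosomes (22 against 7), with 9 against 8 and 684 against 902 in the other libraries. These pairs share with miR-374a* a lower arm ratio in the MCF-10A-labelled cell library than in cells of MDA-MB-231 and MCF-10A exosomes.

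2 pairs had more star than partner reads in MDA-MB-231 exosomes but not in cells of MDA-MB-231 with comparable reads. The excess in exosomes rests on few reads for both, so the order of the arms there is uncertain. miR-193b*, from a miRNA that represses the protease gene PLAU, had 41 star against 35 partner reads in exosomes and 17 against 247 in cells. miR-365*, whose partner is encoded beside miR-193b, had 28 against 16 in exosomes and 77 against 241 in cells. Whether other hairpins add to the partner reads of miR-365* was not checked.

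The remaining pairs led by the star arm belong to tissues other than breast epithelium or to few reads outside the MCF-10A-labelled cell library. miR-144*, of the erythroid miR-144 and miR-451 hairpins, had 1452 star against 27 partner reads in exosomes of MDA-MB-231 and 2046 against 1756 in the MCF-10A-labelled cell library. In cells of MDA-MB-231 it had 2 against 0 and in MCF-10A exosomes 4 against 2. 4 of the others showed the star arm leading in MDA-MB-231 exosomes as well: miR-136* (37 against 11 reads), miR-145* (22 against 15), miR-376a* (64 against 1) and miR-493* (283 against 44). For miR-145* the star share was 59.5% (43.5 to 73.7), an interval that includes equal arms. miR-145* of smooth muscle had 5515 star against 96572 partner reads in the MCF-10A-labelled cell library, and miR-136* 988 against 4448, so the star arm did not lead there. miR-376a* and miR-493*, both of the DLK1-DIO3 cluster, led in the MCF-10A-labelled cell library with 684 against 119 and 591 against 117 reads. In that library the star arm also led for miR-34b* (1806 against 420), miR-202* (16262 against 398), miR-214* (420 against 268), miR-675* (191 against 15), made from the imprinted H19 RNA, and miR-431* (27 against 16). It led there too for miR-624* (46 against 18) and for the placental miR-518e*, miR-519a* and miR-523*, whose shared 1001 star reads stood against 848, 890 and 713 partner reads.

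Exosomes were first compared with cells of MDA-MB-231. A pair entered when at least 5 star reads were expected in both libraries if the ratio were equal, and it was counted as apart when the ratios differed at least 2-fold. Of 60 pairs, the star arm was relatively lower in exosomes for 27 and higher for 10, and the counting interval excluded no difference for 23 and 7 of these. Over all pairs, those with -5p and -3p names included, 36.8% were lower and 19.5% higher. The median difference over star pairs was -0.62. The placental miR-518e*, miR-519a*, miR-522* and miR-523* all entered with identical star reads, and without them 27 of 56 pairs were lower and 8 higher, with a median of -0.76. Over 27 pairs of -5p and -3p names, 5 were lower and 7 higher with a median of 0.09. Their ratio was taken as less abundant over more abundant arm, by reads summed over the 4 libraries. Most of these reads come from the cell libraries, so this choice can favour a higher ratio in exosomes. The difference between the classes of names was not tested.

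miR-100* was the star arm most reduced in MDA-MB-231 exosomes among pairs with star reads in both libraries. It had 18 reads in exosomes and 857 in cells, while its partner miR-100, a miRNA of the miR-99 family, had 77631 and 289869 reads. The ratio was 12.4-fold lower in exosomes (8.02 to 21.6). miR-629* had 0 reads in MDA-MB-231 exosomes beside 429 partner reads, and 17 beside 262 in cells. With 3 reads allowed for the 0, its ratio was at least 9.28-fold lower in exosomes, a value that takes the other 3 counts as exact, while the exact interval began at 6.67-fold.

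The next lowest were miR-374b* (9.07-fold lower, 4.48 to 24.8), miR-191* (6.64-fold, 3.18 to 19.9), miR-186* (6.65-fold, 2.84 to 27.8) and miR-148a* (6.58-fold, 4.76 to 9.55), whose partner represses the DNA methyltransferase DNMT1. Several star arms with many reads were also lower. miR-181a* had 257 star against 15655 partner reads in exosomes and 2280 against 26524 in cells, a ratio 5.23-fold lower (4.59 to 5.99). Part of these partner reads may come from the hairpin of miR-181a-2*, which has the same partner. miR-221*, of the miR-221 and miR-222 hairpins that repress the cell cycle inhibitor CDKN1B, had 985 against 7354 in exosomes and 6316 against 13540 in cells, 3.48-fold lower (3.24 to 3.75). miR-374a* was 2.86-fold lower in exosomes (2.25 to 3.57), although its star arm led in both libraries. miR-30a* differed by less than the 2-fold size, 1.60-fold lower (1.55 to 1.66).

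Star arms with a higher ratio in MDA-MB-231 exosomes were fewer. miR-193b* was 16.5-fold higher (8.33 to 35.2) from the reads given above, and miR-365* 5.38-fold higher (2.69 to 11.4). miR-106b*, from the MCM7 hairpins that are paralogues of the oncogenic miR-17-92 cluster, had 207 star against 1204 partner reads in exosomes and 691 against 22772 in cells. That is 5.67-fold higher in exosomes (4.78 to 6.70). miR-18a* of the miR-17-92 cluster itself was 5.43-fold higher (4.03 to 7.14), miR-23b* 6.70-fold (3.20 to 14.9) and miR-92b* 2.85-fold (1.85 to 4.30). For miR-106b* and miR-18a* the partner moved more than the star arm, on levels that depend on the scaling of the libraries. miR-106b stood at 12.94 against 14.92 and miR-18a at 11.95 against 14.46 as deposited log2 levels, while the star arms stood at 10.40 against 9.88 and 8.75 against 8.83. miR-100* differed more in the star arm, at 6.89 against 10.19, beside partner levels of 18.95 and 18.59.

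**Figure D2:**
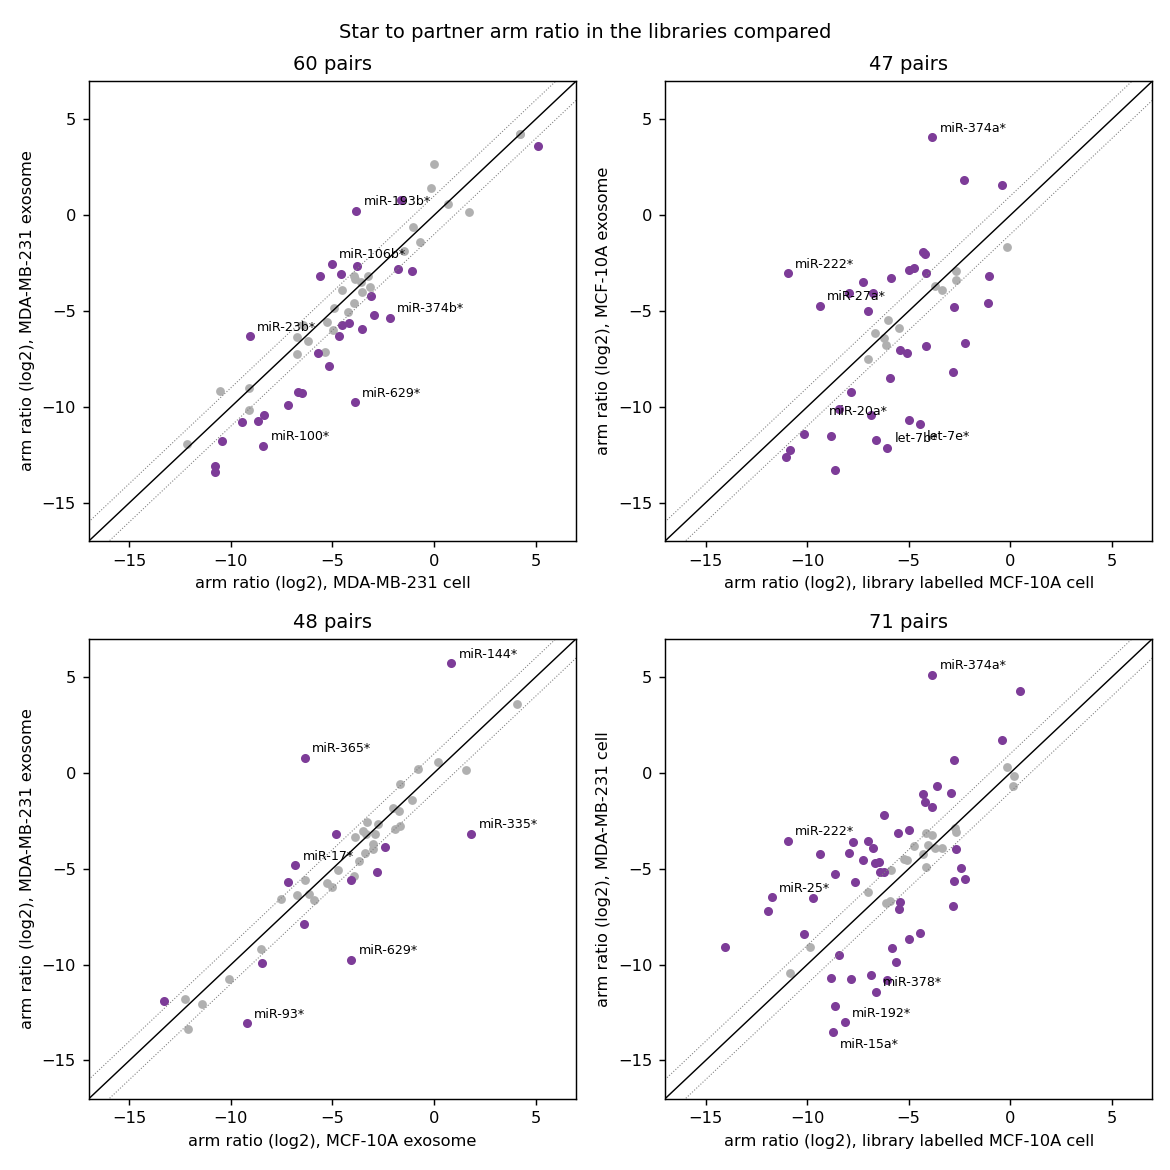
Arm ratio (log2 of star over partner reads) in 1 library against another for the 4 comparisons, with 1 point per star pair that entered, a line of equal ratios and dotted lines at a 2-fold difference. Coloured points are at least 2-fold apart with a counting interval that excludes no difference: 7 above and 23 below the line for MDA-MB-231 exosomes against cells, 15 and 21 for MCF-10A, 6 and 8 between the exosomes, and 30 and 20 between the cell libraries.

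Exosomes of MCF-10A were compared with the MCF-10A-labelled cell library in the same way. Of 47 pairs, 22 were lower and 15 higher in exosomes, with intervals excluding no difference for 21 and 15, and a median of -0.65. The sign of the median rests on the minimum of 5 expected star reads: with no minimum, 119 pairs entered, 62 were higher and 32 lower, and the median was 1.14. Over all pairs, 40.0% were lower and 37.1% higher. Over 23 pairs of -5p and -3p names, 6 were lower and 11 higher with a median of 0.86. The median absolute difference was 2.15, against 1.32 in MDA-MB-231.

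On the higher side, miR-222* had the largest fold. It had 245 star against 1985 partner reads in MCF-10A exosomes and 6 against 12848 in the MCF-10A-labelled cell library, 244-fold higher in exosomes (119 to 728). miR-374a* was 240-fold higher (171 to 357). miR-27a*, of the miR-23a hairpins on chromosome 19, had 203 against 5350 and 207 against 137524 reads, 25.2-fold higher (20.6 to 30.8). miR-335* was 17.4-fold higher (14.2 to 21.5), miR-29a* 14.7-fold (12.3 to 17.4) and miR-92b* 13.7-fold (7.27 to 28.1). For the same 6 pairs, cells of MDA-MB-231 lay nearer the exosomes of MCF-10A: their star share of the pair was 7.91% against 11.0% for miR-222*, 4.99% against 3.66% for miR-27a*, 5.16% against 5.59% for miR-29a* and 4.05% against 8.10% for miR-92b*. In the MCF-10A-labelled cell library these shares were 0.0467%, 0.150%, 0.402% and 0.626%. For miR-335* cells of MDA-MB-231 had only 8 star and 1 partner reads. The 6 pairs were picked as extremes against the MCF-10A-labelled cell library. A library outside the pick tends to lie nearer the exosomes in such pairs, so no conclusion is drawn from its position.

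On the lower side, let-7e* had the largest fold. It had 2 star against 4690 partner reads in MCF-10A exosomes and 182 against 4009 in the MCF-10A-labelled cell library, 85.4-fold lower (29 to 886). let-7b*, the passenger of a tumour-suppressive let-7 member, had 30 against 137146 and 836 against 55466 reads, 67.8-fold lower (47.9 to 103). miR-20a* was 52.0-fold lower (22.5 to 216), miR-224* 41.4-fold (19.2 to 141), miR-378* 34.7-fold (20.0 to 73.2) and let-7a* 25.6-fold (17.3 to 41.6). Here too cells of MDA-MB-231 lay on the side of MCF-10A exosomes, with a star share of 0.0552% for let-7b*, 0.299% for let-7e* and 0.246% for miR-20a*. The shares in the MCF-10A-labelled cell library were 1.48%, 4.34% and 3.01%. These pairs too were picked as extremes of this comparison, so no conclusion is drawn from the side on which cells of MDA-MB-231 lay.

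With cells of MDA-MB-231 set in place of the MCF-10A-labelled cell library, a comparison across lines chosen after the data were seen, 54 pairs entered. The star arm was lower in MCF-10A exosomes than in cells of MDA-MB-231 for 21 of them and higher for 9, with a median of -0.47. Over all pairs, 30.3% were lower and 25.0% higher in MCF-10A exosomes. Over 22 pairs of -5p and -3p names, 2 were lower and 10 higher.

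In both lines 36 pairs could be compared, and 20 of them had opposite signs. Such overlaps were not counted over all pairs, and an overlap beyond coincidence was not tested. In the single comparisons, 36.8% (MDA-MB-231) and 40.0% (MCF-10A) of all pairs were lower in exosomes, and 19.5% and 37.1% higher. A lower star arm in exosomes, at least 2-fold and with intervals excluding no difference, was seen in both lines for let-7b*, let-7e*, miR-100*, miR-183*, miR-20a*, miR-21*, miR-22*, miR-30d* and miR-93*, and a higher one for miR-106b*, miR-200b* and miR-92b*. miR-21*, the passenger of the oncogenic miR-21, had the most reads of the first 9. It had 163 star reads beside 579458 partner reads in exosomes of MDA-MB-231 and 2157 beside 2955654 in cells of MDA-MB-231, 2.59-fold lower in exosomes (2.21 to 3.06). In MCF-10A exosomes it had 77 beside 382566 and in the MCF-10A-labelled cell library 460 beside 851315, 2.67-fold lower (2.10 to 3.46). The 2 differences lie within each other's intervals.

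miR-183*, from a cluster of sensory and epithelial miRNAs, was 5.65-fold lower in MDA-MB-231 exosomes (2.58 to 19.4) and 5.94-fold lower in MCF-10A exosomes (3.47 to 10.0). miR-30d* was 2.45-fold (1.57 to 4.26) and 3.18-fold (2.16 to 5.01) lower in the same order, miR-22* 2.22-fold (1.49 to 3.52) and 4.42-fold (1.93 to 18.3), and miR-100* 12.4-fold and 2.44-fold (1.40 to 4.61). Few reads stood behind others of the 9: miR-93* had 1 read in MDA-MB-231 exosomes, let-7e* 2 in MCF-10A exosomes, and miR-20a* 3 and 4 in the exosome libraries. Of the 3 higher names, miR-106b* was 5.67-fold higher in MDA-MB-231 and 6.03-fold in MCF-10A exosomes (4.80 to 7.53). miR-200b*, whose partner represses the ZEB factors, was 2.23-fold (1.03 to 4.21) and 4.05-fold (3.17 to 5.08) higher.

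The same pairs can be read against cells of MDA-MB-231 for both exosome libraries, which then share that library. Against it, the ratio in MCF-10A exosomes was 3.34-fold higher for miR-106b* (2.75 to 4.02), 2.09-fold for miR-200b* (1.51 to 2.89) and 2.11-fold for miR-92b* (1.32 to 3.25). It was 8.20-fold lower for miR-100* (5.23 to 14.5), 3.60-fold for miR-21* (2.89 to 4.61) and 3.50-fold for miR-183* (2.43 to 5.27). let-7b*, let-7e*, miR-20a* and miR-22* were lower too, by 2.54-fold to 6.30-fold, while miR-30d* was 1.56-fold lower (1.06 to 2.44), under the 2-fold size. For miR-93* the ratio in MCF-10A exosomes was instead 2.95-fold higher than in cells of MDA-MB-231 (1.61 to 5.21).

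**Figure D3:**
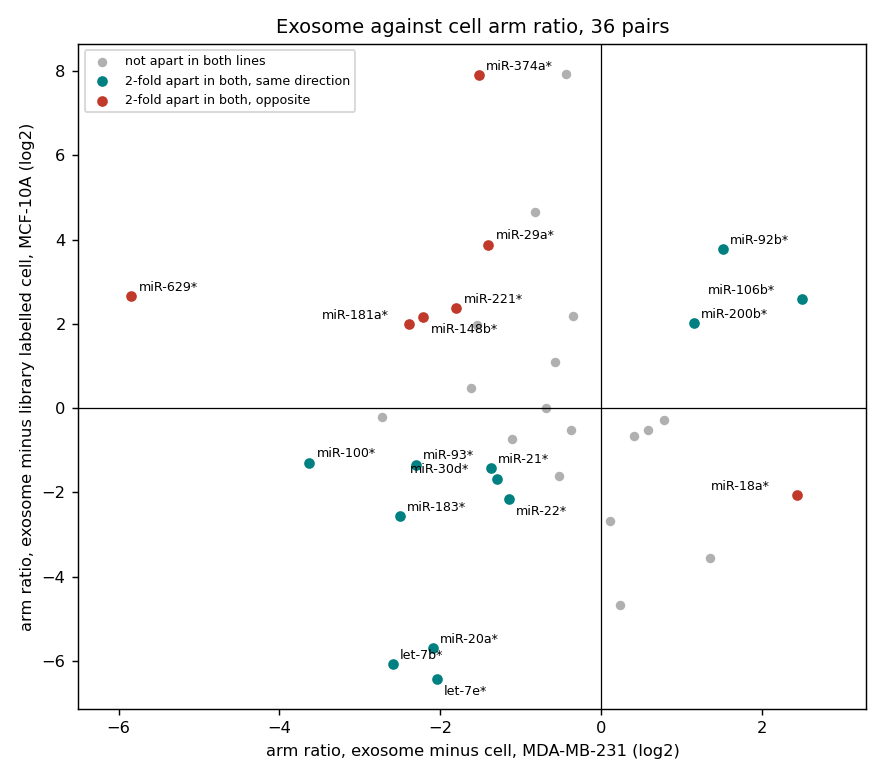
Difference of the arm ratio (log2, exosome minus cell) in MDA-MB-231 on the horizontal axis and in MCF-10A on the vertical axis, with 1 point per pair that entered in both lines (36 pairs). Named points are at least 2-fold apart in both lines: 3 are higher in both, 9 lower in both, and 7 lie in the quadrants of opposite sign.

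Between the exosomes of the lines, 29 of 48 pairs lay within 2-fold of each other. Of the rest, 12 were lower and 7 higher in exosomes of MDA-MB-231, with intervals excluding no difference for 8 and 6, and a median of -0.41. With no minimum on expected reads, 29 of 103 pairs were higher and 22 lower, and the median turned to 0.093. Over all pairs, 22.7% were lower and 15.2% higher, and of 18 pairs of -5p and -3p names 3 were lower and 3 higher. miR-365* was the highest in MDA-MB-231 exosomes, with 28 star against 16 partner reads beside 2 against 203 in MCF-10A exosomes, 141-fold (37.5 to 1590). miR-144* was 29.3-fold higher (2.31 to 195) on 4 and 2 reads in MCF-10A exosomes. miR-17* was 4.01-fold (2.81 to 5.92), miR-18a* 3.08-fold (1.95 to 5.06) and let-7a* 2.60-fold (1.48 to 4.68) higher.

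On the lower side, miR-335* was 32.3-fold lower in MDA-MB-231 exosomes (9.47 to 349) on 2 star reads, and miR-629*, at 0 reads there, at least 8.25-fold lower with 3 reads allowed (exact interval from 5.97-fold). miR-93* was 14.5-fold lower (3.42 to 880) on 1 read. miR-148b* had more reads behind it, with 92 star against 3360 partner reads in exosomes of MDA-MB-231 and 126 against 901 in MCF-10A exosomes. Its ratio was 5.10-fold lower (3.83 to 6.82). miR-29a* was 2.88-fold (2.27 to 3.66) and miR-148a* 2.82-fold (1.67 to 4.68) lower. With a minimum of 20 expected star reads, 4 of 22 pairs remained apart between the exosomes, 2 in each direction.

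The cell libraries differed more. Of 71 pairs, 30 were higher and 20 lower in cells of MDA-MB-231 than in the MCF-10A-labelled cell library, all of them with intervals excluding no difference, and the median was 0.74. Over all pairs, 45.2% were higher and 28.8% lower, and of 33 pairs of -5p and -3p names 17 were higher and 10 lower. The highest were miR-374a* (499-fold, 452 to 551), miR-222* (170-fold, 84.0 to 503), miR-25* (38.1-fold, 12.3 to 401), miR-27a* (34.8-fold, 30.4 to 40.3), miR-23a* (31.2-fold, 13.1 to 131) and miR-191* (27-fold, 16.5 to 49.3). miR-25* and miR-23a* had 2 and 4 star reads in the MCF-10A-labelled cell library beside 8476 and 76296 partner reads, so the passenger arm was almost lacking there although the guide arm was abundant.

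Among lower pairs with star reads in both libraries, miR-378* had the largest fold, 27.6-fold lower in cells of MDA-MB-231 (21.3 to 36.6). It was followed by let-7b* (26.7-fold, 17.6 to 44.9), miR-224* (17.1-fold, 9.80 to 36.3), let-7e* (15.0-fold, 10.9 to 21.4), miR-20a* (12.6-fold, 10.2 to 15.6), miR-101* (12.5-fold, 7.44 to 24.8) and let-7a* (11.7-fold, 9.81 to 14.0). miR-192*, miR-15a* and miR-106a* had 0 reads in cells of MDA-MB-231 beside 4110, 5853 and 472 partner reads. With 3 reads allowed, their ratios were at least 4.81-fold, 4.47-fold and 3.07-fold lower there, and the exact intervals began at 3.88-fold, 3.38-fold and 2.22-fold. In both fractions, 43 pairs could be compared between the lines and 24 had opposite signs, a count that was not made over all pairs. Only miR-93* was at least 2-fold apart in the same direction with intervals excluding no difference, lower in MDA-MB-231 in exosomes and in cells (7.49-fold in cells, 4.80 to 12.0).

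**Figure D4:**
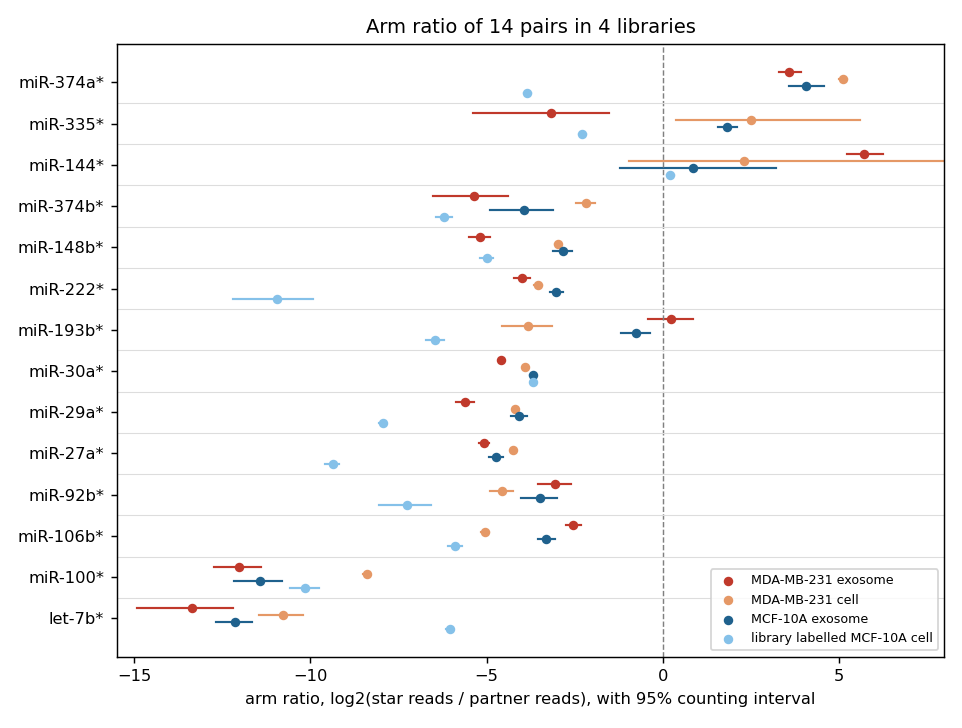
Arm ratio (horizontal axis, log2 of star over partner reads) of the 14 star names with printed sequences in each of the 4 libraries, with bars for the 95% counting interval from the Wilson interval of the star share. For miR-374a*, miR-222*, miR-29a* and miR-27a* 3 libraries lie above the MCF-10A-labelled cell library, for let-7b* that library lies above the other 3, and the interval of miR-144* in cells of MDA-MB-231 (2 reads) is clipped at the axis.

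Across the 41 pairs with at least 5 star reads in every library, the arm ratios of the 2 exosome libraries were correlated with Pearson r 0.963 and Spearman rho 0.938. Cells of MDA-MB-231 had an r of 0.889 (rho 0.778) with their own exosomes and 0.938 (rho 0.867) with MCF-10A exosomes. The MCF-10A-labelled cell library had an r of 0.589 (rho 0.536) with MCF-10A exosomes, 0.618 (rho 0.588) with MDA-MB-231 exosomes and 0.578 (rho 0.562) with cells of MDA-MB-231. Its arm ratios thus lay about equally far from all 3. These values run across pairs, which are not replicates, and each library enters 3 of them. The median absolute difference was 0.76 between the exosomes, 1.11 and 1.04 between cells of MDA-MB-231 and the exosomes of MDA-MB-231 and MCF-10A, and 1.89 to 2.18 for the MCF-10A-labelled cell library.

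The groups below were drawn up after the data were seen, and their counts are descriptions. Of the 6 let-7 pairs, 5 entered for MDA-MB-231 exosomes against cells, of which 2 were lower by 2-fold and 0 higher (36.8% and 19.5% over all pairs). For MCF-10A exosomes 6 entered, of which 5 were lower and 0 higher (40.0% and 37.1% over all pairs). In cells of MDA-MB-231, 6 of 6 were lower than in the MCF-10A-labelled cell library (28.8% over all pairs). let-7d* had the highest ratio of the named let-7 arms throughout, at -3.19, -3.96, -2.92 and -2.65, against -11.92, -12.16, -13.30 and -8.62 for let-7a*. let-7a is encoded at more hairpins than let-7a*, so part of its partner reads come from other hairpins, and 6 partners are of this kind. The partner of miR-365*, which was given no arm, was not checked for this.

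The miR-17-92 and paralogous clusters were mixed, and star arms of 1 host transcript did not all take the same direction. For MDA-MB-231 exosomes against cells, 3 of 7 pairs were higher (miR-18a*, miR-106b* and miR-92b*) and 2 lower (miR-20a* and miR-93*). Over all pairs, 19.5% were higher and 36.8% lower. miR-106b*, miR-93* and miR-25* come from 1 intron of MCM7, and their ratios in MDA-MB-231 exosomes against cells were 5.67-fold higher, 4.93-fold lower (1.22 to 296) and 1.68-fold higher with an interval that spans no difference. miR-17*, miR-18a* and miR-20a* come from 1 transcript, and in MCF-10A exosomes they were lower by 6.47-fold (4.73 to 9.28), 4.17-fold (2.60 to 6.94) and 52.0-fold.

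In the cell libraries several small families took 1 direction. Over all pairs, 45.2% were higher and 28.8% lower there, and families of 2 arms are too small to set against these shares. Both miR-148 arms, both miR-29 arms with a partner row, both miR-221 and miR-222 arms and both miR-181 arms were at least 2-fold higher in cells of MDA-MB-231 than in the MCF-10A-labelled cell library, as were 3 of the 4 miR-23 and miR-27 arms. In MDA-MB-231 exosomes against cells, both miR-148 and both miR-29 arms were lower by at least 2-fold, and so were 2 of the 4 miR-30 arms, miR-30d* and miR-30e* (2.16-fold, 1.99 to 2.35). Over all pairs, 36.8% were lower in that comparison. miR-126*, of the endothelial miR-126, held 7.05%, 10.1%, 10.8% and 5.40% of its pair, although its level ran from 8.25 in cells of MDA-MB-231 to 13.54 in the MCF-10A-labelled cell library. Its ratio thus varied less than its level. The neural miR-9* held 5.10% of its pair in MDA-MB-231 exosomes, 3.13% in cells of MDA-MB-231 and 15.6% in the MCF-10A-labelled cell library, with 0 star reads beside 14 partner reads in MCF-10A exosomes. miR-143* of smooth muscle stood at 4208 beside 2964454 partner reads in the MCF-10A-labelled cell library, a ratio of -9.46, and at 4 beside 8745 in MDA-MB-231 exosomes.

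Which strand of the hairpin carried the star was a further difference between pairs. Arms were assigned from the later -5p and -3p names, and of 125 pairs 76 had the star on the 3p strand and 49 on the 5p strand. For MDA-MB-231 exosomes against cells, 19 of 36 pairs with a 3p star were lower and 2 higher (median -1.07), while of 23 with a 5p star 8 were lower and 7 higher (median 0). Without the 4 placental names of identical reads, all with a 5p star, 8 of 19 were lower and 5 higher (median -0.57). For MCF-10A exosomes, 17 of 31 with a 3p star were lower and 7 higher (median -1.34), and of 16 with a 5p star 5 were lower and 8 higher (median 0.84). The medians of 3p stars were thus the lower ones in both lines, and the difference between 3p and 5p stars was not tested. Against cells of MDA-MB-231, MCF-10A exosomes had a lower star for 17 of 35 pairs with a 3p star and a higher one for 5, and a lower star for 3 of 18 with a 5p star and a higher one for 4. Between the exosomes of the lines the medians were -0.46 for 29 pairs with a 3p star and -0.41 for 18 with a 5p star. A split was also seen without exosomes, in cells of MDA-MB-231 against the MCF-10A-labelled cell library. There, 14 of 45 pairs with a 3p star were higher and 17 lower (median -0.23). Of 26 with a 5p star, 16 were higher and 3 lower (median 1.84). That comparison uses the MCF-10A-labelled cell library, whose content differs, and the source of the split was not tested. Over all pairs, 36.8% were lower and 19.5% higher for MDA-MB-231 exosomes against cells. For MCF-10A exosomes the shares were 40.0% and 37.1%, and against cells of MDA-MB-231 30.3% and 25.0%. Between the cell libraries, 45.2% were higher and 28.8% lower.

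For 108 pairs RefSeq held both sequences. The partner began with U in 59.3% and the star in 18.5%, while C was the first base of 13.0% of partners and 43.5% of stars. In 53 pairs the partner alone began with U, in 9 the star alone, in 11 both and in 35 neither. The sequences above show this contrast: miR-27a, miR-29a, miR-335, miR-106b, miR-92b, let-7b, miR-148b, miR-144 and miR-30a begin with U, and of the star arms printed only miR-335* does.

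The 25 star names without a row of the same base name carry a locus number in 23 cases, since 1 mature guide is made from several hairpins while each hairpin has its own passenger. Their arm ratio cannot be taken without mixing hairpins. In the first 3 libraries the highest was miR-30c-2*, at levels of 11.27 in MDA-MB-231 exosomes, 11.78 in cells of MDA-MB-231, 9.80 in MCF-10A exosomes and 9.46 in the MCF-10A-labelled cell library. miR-24-2*, from the same chromosome 19 hairpins as miR-27a*, stood at 9.83, 11.58, 9.72 and 8.20. Its sister miR-24-1*, from the paralogous hairpins, stood at 6.31, 7.36, 4.08 and 8.59, so that the order of the 2 loci was reversed in the MCF-10A-labelled cell library only.

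The same contrast of loci was seen for other miRNAs, picked after their values were seen. miR-29b-1* stood at 9.25, 8.79, 9.58 and 4.46 and miR-29b-2* at 6.19, 6.59, 5.04 and 7.67, libraries ordered as before. miR-125b-1* stood at 10.86, 10.11, 9.24 and 7.97 and miR-125b-2* at 9.12, 9.09, 8.95 and 10.27, the last being the highest level of these 25 names in the MCF-10A-labelled cell library. For miR-24, miR-29b and miR-125b, 1 locus led in the first 3 libraries and the other in the MCF-10A-labelled cell library. The lead was smallest for miR-125b in MCF-10A exosomes (76 against 62 reads). let-7f reversed as well, on few reads: let-7f-1* against let-7f-2* had 4 against 2, 30 against 7, 7 against 0 and 95 against 171. The order of the loci of miR-16 and of miR-138 did not reverse. Reversals were not counted over all miRNAs with several loci. Other names of 100 or more reads were miR-181a-2* (9.42, 9.86, 9.17 and 7.70), miR-16-2* (7.47, 8.36, 8.17 and 7.97), let-7a-2* (5.33, 8.01, 6.02 and 4.20) and miR-7-1* (4.36, 7.25, 5.04 and 8.18). miR-138-1* stood at 8.82 and 8.76 in MDA-MB-231 exosomes and cells against 4.08 and 5.04 in the MCF-10A libraries. miR-218-1* stood at 5.90, 6.48, 0 and 6.56 and let-7f-2* at 3.81, 3.40, 0 and 7.30. The 2 names with no partner by either name were miR-129* and miR-517*, at 8.76 and 7.21 in the MCF-10A-labelled cell library, with 1 read of miR-129* in MDA-MB-231 exosomes and 0 elsewhere.

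Levels of star names were compared between libraries as well. At a 4-fold size on the deposited log2 values, 24 of 119 star names were higher and 18 lower in MDA-MB-231 exosomes than in cells of MDA-MB-231 (22.2% and 13.4% over all names). Without star names of other tissues and of the DLK1-DIO3 and placental clusters, 6 of 100 were higher and 18 lower. The shares over all names still contain miRNAs of those tissues and clusters. They are therefore no base for these 2 counts. For MCF-10A exosomes, 23 of 144 were higher and 68 lower than in the MCF-10A-labelled cell library (15.4% and 57.2%). Between exosomes, 39 of 122 were higher and 17 lower in MDA-MB-231 (29.3% and 19.0%), and between cells, 32 of 143 were higher and 64 lower (17.3% and 54.3%). These counts depend on the scaling. With libraries scaled by the upper quartile, which moved all log2 differences down by 0.44 and 0.73 for MDA-MB-231 and between exosomes and up by 1.64 and 1.42 for MCF-10A and between cells, they became 20 higher and 27 lower, 48 and 55, 34 and 22, and 44 and 53 in this order. Arm ratios are not touched by it.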

How the data were processed

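The deposited values are on a log2 scale with 2 decimals, 1 value per miRNA name and library. No source used here states the scale. The values fit log2(reads per 10000000 miRNA reads + 1), and low values are whole multiples of 1 step (6.52, 1.36, 7.97 and 0.914 reads per 10000000 in MDA-MB-231 exosomes, MDA-MB-231 cells, MCF-10A exosomes and the MCF-10A-labelled cell library). Reads were recovered from that step, and larger numbers of reads are known only to the deposited rounding, 0.005 log2 or 0.347%. Up to 3 reads are allowed where none was found, which is 19.6, 4.08, 23.9 and 2.74 reads per 10000000 in this order. The submitters' processing notes name Novoalign, edgeR and hg18, without version or role. Per the labels' protocols, libraries took RNAs of 17 to 52 nt and ligated them through the 5′ monophosphate. How exosomes were purified and how reads were assigned to names are not given in the sources used here.

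Arm ratios were log2 of star plus 0.5 over partner plus 0.5 reads. A fold between libraries is the odds ratio with an exact conditional interval (scipy 1.17.1, Python 3.11.15), and the calculation was tested on simulated data. A pair needed at least 5 expected star reads in both libraries. Background shares are over all pairs that entered, star pairs and 70 pairs of -5p and -3p names. For the latter, the less abundant arm was set by reads summed over the 4 libraries, most of them from the cell libraries. This can favour a higher ratio in the library of a comparison with fewer reads, and the shares over all pairs contain it. Levels were compared as deposited, at 4-fold, for names at 10 or more reads per 10000000.

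The members, lists and tests were chosen with earlier results of these data known. Named pairs are the 10 highest star names of each library, stars at or above their partner with at least 20 reads, the 6 highest and 6 lowest differences of each comparison whose interval excludes no difference, pairs apart in both lines or both fractions, and star names of 100 or more reads without a partner row. Other names were chosen after their values were seen, as were the arm assignments, the family groups and the MDA-MB-231 cell comparison with MCF-10A exosomes. miR-129* and miR-365* were given no arm. Alternatives were other minimums, a 4-fold size, deposited log2 values in place of reads, other scaling for levels, and leaving out star names of other tissues, star names of identical reads (added after the data were seen) or partners of several hairpins.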

Additional observations from a re-analysis of the deposited data

Results flagged for a closer look

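Pairs whose arm ratio differed at least 2-fold between exosomes and cells in opposite directions in the 2 lines were singled out. With 1 library per group the difference between lines was not tested. On the log2 scale, in MDA-MB-231 and then MCF-10A, the exosome minus cell difference was -2.21 and 2.17 for miR-148b*, -2.39 and 2.0 for miR-181a*, 2.44 and -2.06 for miR-18a*, -1.80 and 2.37 for miR-221*, -1.40 and 3.88 for miR-29a*, and -1.52 and 7.91 for miR-374a*. For miR-629* it was -5.84 and 2.66 with 0.5 reads added, where the first rests on 0 star reads in MDA-MB-231 exosomes and is no bound.

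Pairs that differed in opposite directions between the lines in exosomes and in cells were singled out in the same way, again without a test of the difference. The MDA-MB-231 minus MCF-10A difference in exosomes and then in cells was 1.38 and -3.54 for let-7a*, -1.49 and 1.02 for miR-148a*, -2.35 and 2.03 for miR-148b*, 1.62 and -2.88 for miR-18a*, -1.47 and 4.76 for miR-191*, -1.52 and 3.75 for miR-29a*, and -5.67 and 2.83 for miR-629*. The medians over the pairs that entered also had opposite signs, -0.41 in exosomes and 0.74 in cells. Each of these contrasts uses the MCF-10A-labelled cell library, in which 46.7% of reads fell on the miRNAs of other tissues, and its part in them was not tested.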

How the results depend on the processing

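No paired analysis was possible because each group was 1 library. Of 74 alternatives of the counts and medians, 61 stayed within the limits set for no change. Without a minimum on expected reads, 62 pairs were apart for MDA-MB-231 exosomes against cells (37 with it), 94 for MCF-10A exosomes (37), 51 between exosomes (19) and 89 between cells (50), and the medians turned sign to 1.14 for MCF-10A exosomes (from -0.65) and 0.093 between exosomes (from -0.41). These sets include more pairs with few star reads. With at least 20 star reads expected, fewer pairs entered and 18, 23 and 4 were apart in the first 3 comparisons, of which 17 of the 18 were lower in MDA-MB-231 exosomes. At a 4-fold size, 19 pairs were apart for MDA-MB-231 exosomes against cells and 7 between exosomes. For levels in MDA-MB-231 exosomes against cells, 42 star names were apart, 25 at 50 or more reads per 10000000, and 24 without star names of other tissues and the DLK1-DIO3 and placental clusters (6 higher and 18 lower, against 24 and 18 with them). No share over all names was taken without the miRNAs of those tissues and clusters. All 103 named differences kept their direction with deposited log2 values in place of reads. In exosome libraries the depth leaves most star names at few reads, and a star arm at 0 there can be as high as 19.6 or 23.9 reads per 10000000.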
